A study of Mus musculus with 12 samples.

Results

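Splicing removes introns from a pre-mRNA in the spliceosome, a machine of small nuclear RNAs and proteins that is assembled anew on each intron. SR proteins (Srsf genes) and hnRNP proteins (Hnrnp genes) bind the pre-mRNA and help or hinder the choice of splice sites, the U2af proteins recognize the 3′ splice site, and the proteins of the small nuclear ribonucleoproteins, or snRNPs (Sf3, Snrp and many Prpf genes), form the particles that pair with the RNA and carry out the reaction. These genes are active in hepatocytes, as in nearly all nucleated cells. Here they were followed in the liver of mice that lack Phgdh, the first enzyme of serine synthesis, in hepatocytes.

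The genes were chosen by symbol alone, from the families Srsf, U2af, Sf3a and Sf3b, Snrp, Prpf and Hnrnp, through the RefSeq accession of each array probe. The rule found 67 genes with 108 probes among 32524 genes and unnamed transcripts on the array, of which 10 were Srsf, 3 U2af, 9 Sf3, 12 Snrp, 13 Prpf and 20 Hnrnp genes. No probe matched Srsf11. A total of 65 genes had a probe well above background on all 12 arrays and were tested, and the 2 others were Srsf12, which was not well above background on any array, and Hnrnph3, which passed that mark in 3 Floxed and 6 LKO mice.

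The control mice, called Floxed, carried homozygous conditional Phgdh alleles (Phgdh flox/flox) and no Cre, and the knockout mice, called LKO, were littermates that also carried 1 Cre allele driven by the albumin promoter (Alb +/Cre; Phgdh flox/flox). All 12 mice were C57BL/6 males of 30 weeks on the same casein chow, with 6 mice in each group and 1 array for each mouse. The albumin promoter is active in hepatocytes, so other liver cells keep Phgdh, and in whole liver RNA fewer cells of a type and less RNA per cell cannot be told apart. Slide 1 held Floxed 1 to 4, slide 2 held Floxed 5 and 6 and LKO 1 and 2, and slide 3 held LKO 3 to 6. Slide and genotype overlap on slide 2 only, so the difference on slide 2 (2 mice against 2) is given beside the called genes and some of the others.

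Values are log2 intensities after quantile normalization, where a difference of 1 is a doubling. A gene counts as called here when its limma p before adjustment fell below 0.05, which is the criterion in the study's array methods. The targeted gene checked the labels in part. Phgdh was 4.81 to 5.50 in Floxed mice (median 5.17) and 4.23 to 5.30 in LKO mice (median 4.57), a difference of -0.48 that was called (SE 0.18, unadjusted limma p = 0.0179, exact permutation p = 0.0346). LKO 3 to 6 lay below all Floxed mice, whereas LKO 1 and 2 lay within their range, and the slide 2 difference was -0.055. The call was lost with 75th percentile scaling (-0.34) and with the slide as a fixed block (-0.055). Where the Phgdh probe lies relative to the deleted exons was not established here. The defining hepatocyte markers were present, with 9 of 10 listed genes on the array and tested, and 0 called. The 75th percentile of the intensity before normalization was 258 to 473 on Floxed and 239 to 427 on LKO arrays.

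The splicing genes changed little. Of 65 tested genes 1 was called, Prpf38b, which was lower in LKO mice. This was 1.54% of them, whereas 1413 of 16915 tested genes (8.35%) were called over the whole array. Over all tested genes 581 (3.43%) were called as lower and 832 as higher, and with 75th percentile scaling in place of quantile normalization 316 and 1127. After Benjamini-Hochberg adjustment over all tested genes no gene passed 0.05 in limma, and the smallest adjusted p was 0.132. In no splicing gene did all 6 LKO values lie on one side of all 6 Floxed values, which held for 50 genes (0.296%) over the array.

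The intervals show how large a change the fit without a slide term leaves room for. They do not allow for shifts between slides. The 95% interval of the difference lay within 0.5 on the log2 scale of 0 in 61 of 65 splicing genes (93.8%), against 70.1% of all tested genes, and within 1 in all 65, against 94.9%. A narrower bound of 0.3, which is 1.23-fold, held for 40 of 65 (61.5%), against 34.6%. Of the 64 splicing genes not called, the smallest adjusted limma p was 0.686 (Hnrnph2). The outermost bounds among the splicing genes were -0.76 and 0.59. The median spread between mice of a genotype (pooled SD) was 0.16 for the splicing genes and 0.22 for all tested genes.

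**Figure D1:**
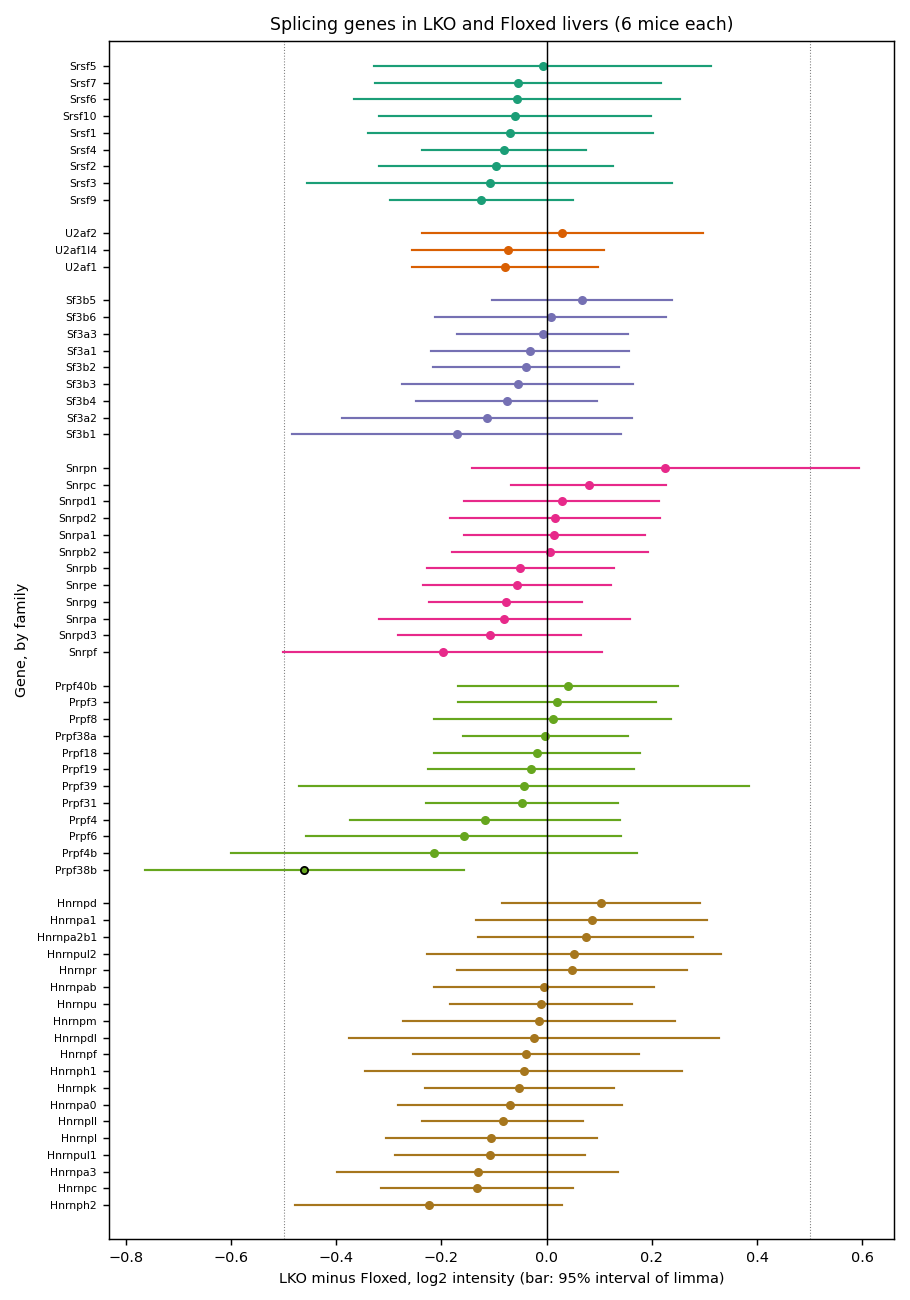
Difference between LKO and Floxed mice (x axis, log2 intensity) for 64 of the 65 tested genes (y axis, grouped by family), with its 95% interval as a bar and dotted lines at -0.5 and 0.5. Prpf38b, drawn with a black rim, is the only gene whose interval does not cover 0, and 60 of the drawn intervals lie between the dotted lines.

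The differences leaned to one side while staying small. In 48 of 65 genes (73.8%) the LKO mean was below the Floxed mean, against 51.2% of all tested genes, and the median difference was -0.05, against -0.003. On the brightest probes the counts were 9 of 9 in Srsf, 2 of 3 in U2af, 7 of 9 in Sf3, 6 of 12 in Snrp, 10 of 13 in Prpf and 14 of 19 in Hnrnp. With normexp background correction 45 of 65 genes were lower, with 8 of 9 in Srsf, and with 75th percentile scaling 47 of 65. On slide 2 alone 41 of 65 (63.1%) were lower, against 7671 of all 16915 tested genes. The sign was the same as over all mice in 46 of 65, against 10266 of the 16915. The slide 2 mice are part of both differences, which by itself favours the same sign. The genes share their mice and arrays, so that these counts are a description and were not tested.

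Prpf38b codes for a pre-mRNA processing factor related to the yeast protein Prp38, which is needed to activate the spliceosome. Its level was 6.75 to 7.03 in Floxed mice (median 6.90) and 5.96 to 6.99 in LKO mice (median 6.41). Of the 6 LKO mice 5 lay below all Floxed mice, and LKO 1 lay inside the Floxed range. The difference was -0.46 (SE 0.14, 95% interval -0.76 to -0.16, unadjusted limma p = 0.00591, adjusted limma p = 0.356), or 0.727 of the Floxed level, and the exact permutation test gave p = 0.0108 (two-sided). On slide 2 the difference was -0.29, and with the slide as a fixed block it was no longer called. With the slide as a random block it was called, but that fit still uses differences between slides. A dimmer second probe for Prpf38b differed by -0.29 (SE 0.23, exact permutation p = 0.281), and the mean of both probes by -0.37, which was not called.

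In 2 more genes a dimmer probe was called although the brighter one was not, and they are named here after their values were seen. Among 103 probes of the splicing genes that were well above background on all arrays, 3 were called, against 8.54% of all such probes on the array. Hnrnpc codes for a protein that packages nascent transcripts and binds their uridine tracts. Its dimmer probe was 9.84 to 10.28 in Floxed mice (median 10.04) and 9.23 to 9.85 in LKO mice (median 9.65). The groups overlapped only in that LKO 2 lay just above the lowest Floxed mouse, Floxed 6. The difference was -0.47 (SE 0.11, unadjusted limma p = 0.00134, adjusted limma p = 0.249, exact permutation p = 0.00433), with -0.25 on slide 2. The brighter Hnrnpc probe, which stood for the gene, was 12.48 to 12.84 in Floxed mice (median 12.73) and 12.38 to 12.75 in LKO mice (median 12.57). Its difference was -0.13 (SE 0.08, exact permutation p = 0.108) and the groups overlapped widely.

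Sf3b4 codes for a subunit of the SF3b complex that contacts the pre-mRNA upstream of the branch site. Its dimmer probe was 4.59 to 5.0 in Floxed and 3.94 to 4.92 in LKO mice, a difference of -0.36 (SE 0.15, unadjusted limma p = 0.0350, exact permutation p = 0.0584). LKO 4, 5 and 6 on slide 3 lay below all Floxed mice and LKO 1, 2 and 3 among them. On slide 2 the difference of that probe was 0.14, the opposite direction. The brighter probe was far higher, at 10.55 to 10.88 in Floxed mice, and differed by -0.08 over all mice (exact permutation p = 0.292). Over all splicing genes 30 had several such probes, and the probes of 9 of them differed in sign. The range between the probes of a gene had a median of 0.08, close to the 0.09 of the 2965 genes with several probes on the array.

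**Figure D2:**
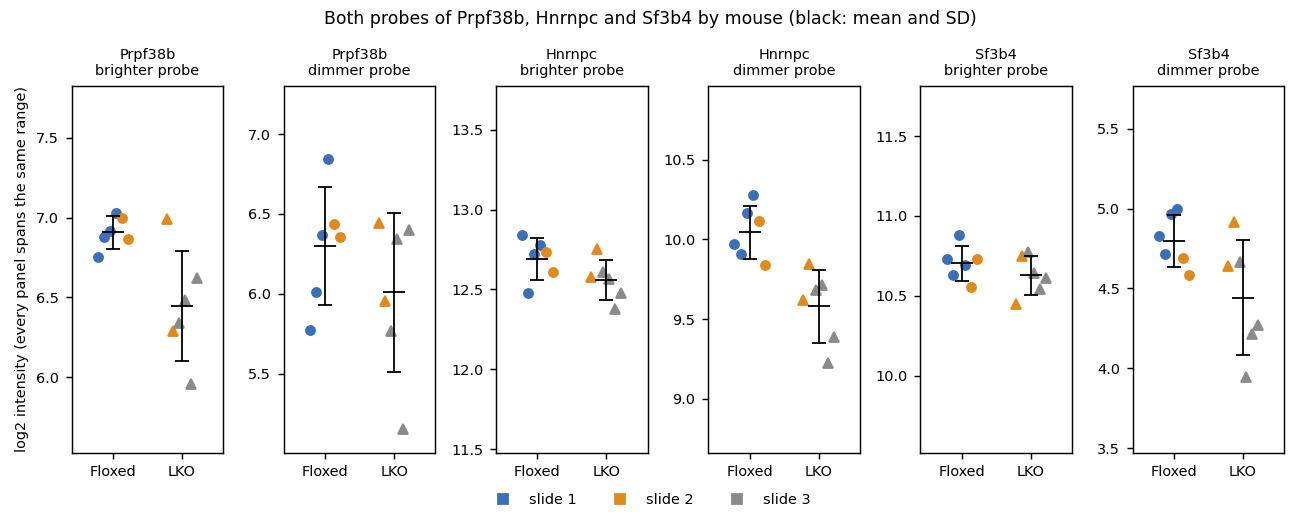
Log2 intensity (y axis, the same span in each panel) of both probes of Prpf38b, Hnrnpc and Sf3b4 in 6 Floxed (circles) and 6 LKO mice (triangles), coloured by slide, with the mean and SD in black. The brighter Prpf38b probe and the dimmer probes of Hnrnpc and Sf3b4 are lower in LKO mice, with the lowest values on slide 3.

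The promoters of these genes were read from RefSeq windows (GRCm38.p6) of 250 bases before to 50 bases after the start, which were at hand for 58 of the 67 genes in 78 windows. The motif CCGGAAG of ETS factors, on either strand, stood in 29.5% of these windows, against 8.86% of all 32851 windows. The GC box GGGCGG stood in 62.8% (35.7% of all windows), CCAAT in 48.7% (37.4% of all) and TATAAA in 8.97% (13.6% of all). The NRF1 site GCGCATGCG stood in 3.85% (1.75% of all) and the YY1 site AAGATGGCG in 2.56% (1.40% of all). All windows were counted whether or not their gene was tested here, and shares among tested genes alone were not taken. The 120 bases before the start are shown for the 2 genes with a called probe that had a window, with CCAAT or its reverse complement ATTGG and the GC box in capitals. They are given 5′ to 3′ on the minus strand, which codes for both genes.
Prpf38b, chr3:108911730-108911849: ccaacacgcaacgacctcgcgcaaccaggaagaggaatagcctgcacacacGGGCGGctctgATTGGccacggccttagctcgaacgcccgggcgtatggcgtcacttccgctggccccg
Hnrnpc, chr14:52104022-52104141: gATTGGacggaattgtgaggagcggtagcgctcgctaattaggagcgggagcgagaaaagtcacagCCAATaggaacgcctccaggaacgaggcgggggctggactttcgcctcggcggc
These letters are a description of the windows, and no binding was measured.

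SR proteins bind exonic enhancers and recruit the snRNPs to nearby splice sites. On their brightest probes all 9 tested Srsf genes had a lower mean in LKO mice and 0 were called. The differences lay between -0.12 (Srsf9) and -0.01 (Srsf5), with all 95% intervals within 0.5 of 0. With normexp background correction 8 of 9 were lower and Srsf9 was called (-0.16), and on slide 2 alone 7 of 9 were lower. Srsf9 was 10.65 to 11.06 in Floxed mice (median 10.72) and 10.55 to 10.72 in LKO mice (median 10.69), with a difference of -0.12 (SE 0.08, exact permutation p = 0.102) and -0.01 on slide 2. The groups overlapped, and the highest Floxed value came from Floxed 3. Srsf5 was 9.32 to 9.89 in Floxed mice (median 9.85) and 9.31 to 10.11 in LKO mice (median 9.84), with a difference of -0.01 (SE 0.15) and 0.19 on slide 2. Srsf1, the founding SR protein, was 8.43 to 9.08 in Floxed mice (median 8.68) and 8.41 to 8.79 in LKO mice (median 8.68), with a difference of -0.07 (SE 0.13) and -0.09 on slide 2. Its dimmer probes differed by 0.06 and 0.005, and by 0.25 and 0.21 on slide 2, so that its direction rests on the probe. Srsf3, the smallest SR protein, was 9.51 to 10.07 in Floxed mice (median 9.86) and 9.33 to 10.24 in LKO mice (median 9.66), with a difference of -0.11 (SE 0.16). For both genes the mice of a genotype spread more widely than the genotypes differed.

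The U2af proteins form a dimer in which U2af2 binds the polypyrimidine tract and U2af1 the AG at the end of the intron. None of the 3 genes was called. U2af1 was 12.31 to 12.60 in Floxed mice (median 12.46) and 12.21 to 12.52 in LKO mice (median 12.42), with a difference of -0.08 (SE 0.08, exact permutation p = 0.284) and 0.11 on slide 2. U2af2 was 6.43 to 7.03 in Floxed mice (median 6.80) and 6.45 to 6.99 in LKO mice (median 6.85), with a difference of 0.03 (SE 0.12). For U2af1, 2 LKO mice lay below all Floxed mice, and for U2af2 none did. The third gene, U2af1l4, a paralog of U2af1, differed by -0.07. On slide 2 the brightest probes of all 3 genes were higher in LKO mice. Their second probes differed there by -0.09 (U2af1), -0.05 (U2af2) and 0.08 (U2af1l4). Over all mice the second U2af2 probe differed by 0.35 (SE 0.20, exact permutation p = 0.128) and was not called.

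The SF3a and SF3b complexes are part of the U2 snRNP and hold it at the branch site. None of the 9 genes was called, and their differences ran from -0.17 (Sf3b1) to 0.07 (Sf3b5). Sf3b1, the large scaffold of SF3b, was 5.09 to 5.71 in Floxed mice (median 5.56) and 5.0 to 5.77 in LKO mice (median 5.24). The difference was -0.17 (SE 0.14, exact permutation p = 0.286), and -0.003 on slide 2. In LKO mice the highest value was that of LKO 2 on slide 2, and the 4 LKO mice on slide 3 lay between 5.0 and 5.27. Sf3b5, a small subunit of SF3b, was 11.92 to 12.19 in Floxed mice (median 11.99) and 11.94 to 12.31 in LKO mice (median 12.08), with a difference of 0.07 (SE 0.08). Sf3a2, a subunit of SF3a, was 12.65 to 13.46 in Floxed mice (median 12.96) and 12.73 to 13.01 in LKO mice (median 12.94), with a difference of -0.11 (SE 0.13), and 0.07 on slide 2. The Floxed mice spread the more in Sf3a2, with an SD of 0.30 against 0.10.

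The Snrp genes code for the Sm proteins, which form the ring common to most spliceosomal snRNPs, and for proteins of the U1 and U2 snRNPs. None of the 12 was called, and 6 were lower and 6 higher in LKO mice. Snrpf, an Sm protein, was 10.24 to 10.68 in Floxed mice (median 10.53) and 10.06 to 10.88 in LKO mice (median 10.17). Of the 6 LKO mice 4 lay below all Floxed mice, LKO 5 lay above them all, and the difference was -0.20 (SE 0.14, exact permutation p = 0.197), with -0.37 on slide 2. Without LKO 5 the difference over the remaining mice was -0.31 and was called. Snrpn, an imprinted gene for a close relative of the Sm protein of Snrpb, was 6.31 to 7.43 in Floxed mice (median 7.28) and 7.17 to 7.59 in LKO mice (median 7.30). Its difference of 0.23 (SE 0.17, exact permutation p = 0.262) was the largest positive difference of the 65, although the medians were nearly equal, and Floxed 1 was the lowest mouse. Without Floxed 1 the difference was 0.06. Snrpg, another Sm protein, was 13.04 to 13.19 in Floxed mice (median 13.12) and 12.89 to 13.13 in LKO mice (median 13.08), with a difference of -0.08 (SE 0.07). Its pooled SD between mice, 0.08, was the smallest of the 65 genes.

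Prpf proteins belong mainly to the U4/U6.U5 particle and to the complex that activates the spliceosome. Apart from Prpf38b none of the 13 genes was called. Prpf8, the large U5 protein at the catalytic centre, was 13.58 to 14.19 in Floxed mice (median 14.09) and 13.89 to 14.21 in LKO mice (median 14.03), with a difference of 0.01 (SE 0.10, 95% interval -0.21 to 0.24). Prpf19, a ubiquitin ligase of the activating complex, was 9.03 to 9.26 in Floxed mice and 8.89 to 9.33 in LKO mice, both with a median of 9.14, and a difference of -0.03 (SE 0.09). Prpf40b was 6.35 to 6.95 in Floxed mice and 6.58 to 6.88 in LKO mice, both with a median of 6.73, and a difference of 0.04 (SE 0.10). The groups overlapped in all 3 genes. The most widely spread genes between mice of a genotype were also of this family, Prpf39 with a pooled SD of 0.38 and Prpf4b with 0.34. Their intervals (-0.47 to 0.39 and -0.60 to 0.17) were the widest of the 65.

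Hnrnp proteins coat nascent transcripts and often silence exons. None of the 19 tested genes was called, with 14 lower and 5 higher means in LKO mice. Hnrnph2, which binds G-rich RNA, was 8.71 to 9.22 in Floxed mice (median 8.82) and 8.32 to 8.96 in LKO mice (median 8.69). The difference was -0.22 (SE 0.12, exact permutation p = 0.0931), but 0.01 on slide 2, and the lowest values were those of LKO 3 and LKO 5 on slide 3. Hnrnph2 was called with the slide as a random block (-0.25) and without LKO 1 (-0.28). Hnrnpd, also known as AUF1, which binds AU-rich mRNAs, was 10.15 to 10.55 in Floxed mice (median 10.30) and 10.28 to 10.60 in LKO mice (median 10.39). Its difference was 0.10 (SE 0.09, exact permutation p = 0.208), and -0.08 on slide 2.

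Hnrnpa1 and Hnrnpa2b1, abundant proteins that often repress exons, differed by 0.09 (SE 0.10) and 0.07 (SE 0.09), and by -0.02 and 0.03 on slide 2. Hnrnpa1 was 8.31 to 8.88 in Floxed mice (median 8.70) and 8.52 to 8.89 in LKO mice (median 8.79), but its second probe differed by -0.26 (SE 0.16), so that its direction rests on the probe. Hnrnpa2b1 was 11.52 to 12.02 in Floxed mice (median 11.76) and 11.68 to 11.96 in LKO mice (median 11.86). Hnrnpa3, a related protein with 7 probes, was 12.51 to 13.27 in Floxed mice (median 12.85) and 12.70 to 12.89 in LKO mice (median 12.79), a difference of -0.13 (SE 0.12), and its 7 probes ranged from -0.26 to 0.12. Hnrnpk, which binds C-rich sequences, was 10.09 to 10.37 in Floxed mice (median 10.27) and 10.005 to 10.36 in LKO mice (median 10.22), with a difference of -0.05 (SE 0.08). Hnrnpu, a nuclear scaffold protein, was 10.45 to 10.74 in Floxed mice (median 10.51) and 10.42 to 10.74 in LKO mice (median 10.50), with a difference of -0.01 (SE 0.08, 95% interval -0.18 to 0.16) and 0.20 on slide 2. All of these groups overlapped.

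Some mice stood out across many of the genes. Floxed 4 was the highest of the 12 mice in 17 of 65 genes (26.2%), against 11.4% of all tested genes. Floxed 2 was the lowest in 12 (18.5%, against 9.97%). LKO 5 was also the lowest in 12 (18.5%), but this was near its share of all tested genes (17.0%). The array of Floxed 4 had the highest 75th percentile of intensity before normalization, 473, and those of LKO 5 and Floxed 2 the lowest, 239 and 258. The part of array intensity in these ranks was not tested.

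**Figure D3:**
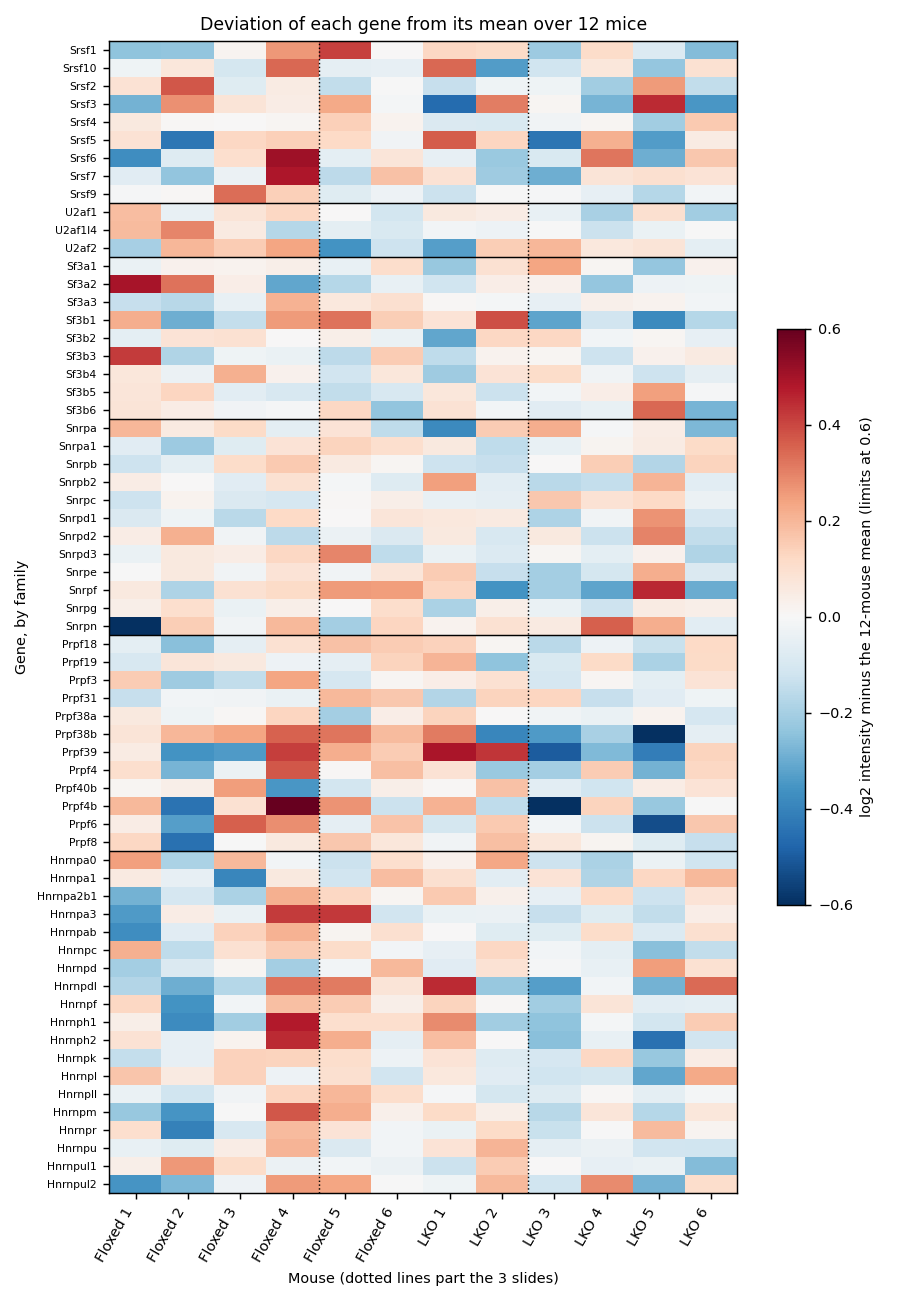
Deviation of 64 of the 65 genes (y axis, grouped by family) from its mean over 12 mice (x axis), in log2 intensity from blue (lower) to red (higher). Floxed 4 is the highest mouse in 16 of the genes drawn, and the Prpf and Hnrnp genes of Floxed 2, LKO 3 and LKO 5 are mostly blue, below the mean.

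The families did not move as one from mouse to mouse. Averaged over its genes, the deviation of a mouse from the 12-mouse mean ranged from -0.13 (LKO 3) to 0.22 (Floxed 4) for Srsf, from -0.19 (LKO 5) to 0.19 (Floxed 4) for Prpf and from -0.14 (Floxed 2) to 0.18 (Floxed 4) for Hnrnp. The genotype means of these 3 families differed by only -0.07, -0.08 and -0.04, and by -0.05, -0.02 and -0.02 on slide 2. For Snrp the highest mouse was LKO 5 at 0.15, the same mouse that was lowest for Prpf. For U2af the 4 Floxed mice on slide 1 lay between 0.06 and 0.15, and the 2 Floxed mice on slide 2 at -0.14 and -0.11, a gap within 1 genotype that was larger than the genotype difference of -0.04. For Sf3 and Snrp the genotype means differed by -0.05 and -0.02. In all 6 families the LKO mean was the lower one, and the Floxed and LKO mice overlapped.

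**Figure D4:**
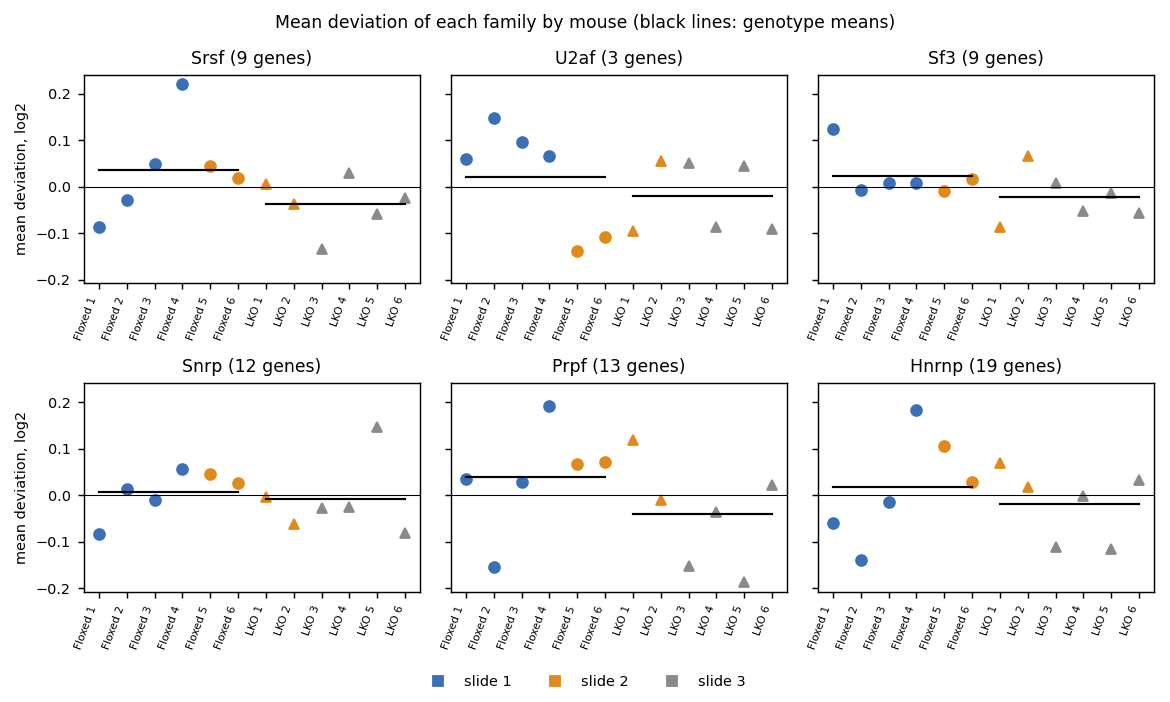
Mean deviation of each family (y axis, log2 intensity) in each of 6 Floxed (circles) and 6 LKO mice (triangles, x axis), coloured by slide, with the genotype means as black lines. The mice of a genotype spread more widely than the 2 lines lie apart in each panel.

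Genes of the same pathway outside these families were taken from 8 lists. Of 184 listed genes 179 were on the array and 167 were tested, and 7 (4.19%, against 8.35% of all tested genes) were called, 3 higher and 4 lower in LKO mice. With the slide as a fixed block 0 of the 167 were called. The difference in that fit comes from the 2 mice against 2 on slide 2, so it has little power to call a gene. The LKO means were lower in 64.1% and higher in 35.9% of the 167 genes, whereas 51.2% of all tested genes were lower. On slide 2 alone 83 of the 167 were lower, with a median difference of 0.0003, against 7671 of all 16915 tested genes. None was called among 7 Lsm genes of the U6 snRNP, 29 other snRNP proteins, 13 spliceosomal helicases, 18 genes of snRNP assembly and 6 genes of the exon junction complex.

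Ctnnbl1, which binds the activating complex of Prpf19, was the one gene of the lists whose groups did not overlap, as in 0.296% of all tested genes. It was 11.02 to 11.30 in Floxed mice (median 11.25) and 11.38 to 11.89 in LKO mice (median 11.58), a rise of 0.37 (SE 0.09, unadjusted limma p = 0.00162, adjusted limma p = 0.273, exact permutation p = 0.00216). This is the smallest p that the exact test of 6 against 6 mice can give, and slide 2 alone gave a difference of 0.37, although the fit with the slide as a fixed block did not call it. In the same list Ppwd1, a peptidyl-prolyl isomerase of the spliceosome, fell by 0.26 (SE 0.11, unadjusted limma p = 0.0320, exact permutation p = 0.0390). Syf2, a partner of the activating complex, fell by 0.27 (SE 0.12, unadjusted limma p = 0.0407, exact permutation p = 0.0476). On slide 2 the differences of Ppwd1 and Syf2 were -0.06 and -0.02.

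Fubp1, which binds single-stranded DNA and U-rich RNA, was 5.43 to 5.71 in Floxed mice (median 5.47) and 4.70 to 5.48 in LKO mice (median 5.08), a difference of -0.46 (SE 0.13, unadjusted limma p = 0.00330, exact permutation p = 0.0108). Ptbp3, a paralog of the polypyrimidine tract binding protein, was 8.02 to 8.51 in Floxed mice (median 8.11) and 7.41 to 8.33 in LKO mice (median 7.72), a difference of -0.41 (SE 0.14, unadjusted limma p = 0.0112, exact permutation p = 0.0173). In both genes LKO 1 lay inside the Floxed range and the other 5 LKO mice below it, the order seen for Prpf38b, and the slide 2 differences were -0.12 and -0.10. Srrm2, a large SR-related protein of nuclear speckles, was 6.18 to 6.70 in Floxed mice (median 6.33) and 6.32 to 7.52 in LKO mice (median 7.02), a rise of 0.56 (SE 0.19, unadjusted limma p = 0.0121, exact permutation p = 0.0281), with 0.15 on slide 2. Esrp1, an epithelial splicing regulator, was 5.63 to 6.18 in Floxed mice (median 5.97) and 5.86 to 6.68 in LKO mice (median 6.22), a rise of 0.35 (SE 0.14, unadjusted limma p = 0.0299, exact permutation p = 0.0563), with 0.08 on slide 2. The 6 called genes other than Ctnnbl1 had smaller differences on slide 2 than over all mice, and with the slide as a fixed block none of the 7 was called.

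**Figure D5:**
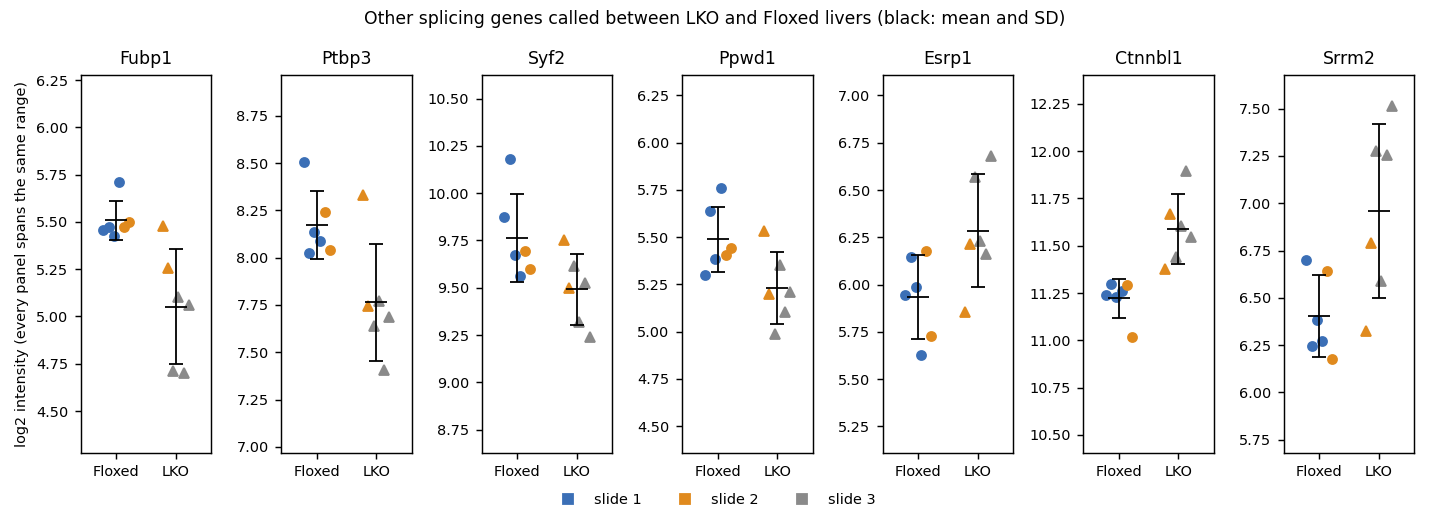
Log2 intensity (y axis, the same span in each panel) of the 7 called genes of the other splicing lists in 6 Floxed (circles) and 6 LKO mice (triangles), coloured by slide, with the mean and SD in black. For Ctnnbl1 all LKO mice lie above all Floxed mice on both slides that hold LKO mice, and for Fubp1 and Ptbp3 the highest LKO mouse is on slide 2.

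The other genes that ranked first or second by p in their list were not called. They include Scaf4, an SR-related protein, at -0.18 (exact permutation p = 0.0476, unadjusted limma p = 0.0517), Phf5a, a further SF3b subunit, at -0.14 (0.0346 and 0.0692) and Zrsr2, the U2af1-like protein of the minor spliceosome, at -0.33 (0.128 and 0.0921). The helicases Ddx39b and Ddx5 differed by 0.13 (exact permutation p = 0.0519) and -0.17 (0.236). Phax, an export adaptor of small nuclear RNAs, and Smn1, which assembles Sm rings, differed by 0.19 (exact permutation p = 0.0736) and -0.10 (0.0584). The values were 0.18 for Lsm8 and 0.06 for Lsm7 (exact permutation p = 0.110 and 0.398), and -0.10 for Upf3a and -0.04 for Upf3b (exact permutation p = 0.249 and 0.788), which act in mRNA surveillance at the exon junction complex. On slide 2 the differences of Zrsr2 and Upf3b were 0.21 and 0.12, and those of Phax and Ddx5 were -0.0003 and 0.0003. Of the marker lists of other liver and neighbouring cells, Pecam1 of endothelial cells (0.70) and Cel of pancreatic acinar cells (0.54) were called higher and Cftr of cholangiocytes (-0.83) lower, with 0.04, 0.27 and -1.49 on slide 2. These were 1 of 10, 1 of 3 and 1 of 4 tested genes of their lists. No gene was called of 9 macrophage, 7 lymphocyte, 10 stellate cell and 4 blood markers, and the part of other cells in the splicing results was not tested.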

How the data were processed

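Liver RNA of 12 mice was labeled with cyanine 3 and hybridized to 12 single-color Agilent mouse arrays. The authors deposited each array's spot intensity from Agilent Feature Extraction, with background removed but no normalization across arrays. They also deposited quantile-normalized intensity values, of which 99.9% lay within 0.1 log2 of the values used here. The labels give the Feature Extraction version as 9.5.1.1, whereas the scanner output names another. Control spots were left out, log2 intensities were quantile-normalized, outlier spots (0.298%) were set missing, and spots of a probe were averaged. A probe had to pass the scanner's mark for a signal well above background on every array, and the brightest such probe stood for its gene. The methods' detection p-value was not at hand. Names came from RefSeq accessions (94.2% matched). Genotypes were compared over 16915 genes with limma 3.58.1 in R 4.3.3 without covariates, and the code was tested on simulated data. Single genes were also compared by an exact permutation test over 924 arrangements. Each array is 1 mouse, and the number of arrays limits the precision. The genes, lists and tests were chosen with earlier results of these data known. Values are given for called genes, for genes whose groups did not overlap, for the largest rise, the largest fall and the brightest probe of each family, for 12 textbook genes, for the 2 genes of smallest p in each other list and for Phgdh. Alternatives covered the normalization, background correction, the authors' table, filters, probe choice, test, threshold, slide, replicate number and each array left out. The values of 1 tested gene are counted but not reported singly.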

Additional observations from a re-analysis of the deposited data

Results flagged for a closer look

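In 5 of 62 groups of 6 mice that were examined, 1 mouse stood apart from the others by Dixon's ratio at its 95% critical value, where chance at 1 in 20 gives 3.1. The low mouse was Floxed 2 for Prpf8, at 13.58 against 14.03 to 14.19 in the other Floxed mice, and for Srsf5, at 9.32 against 9.73 to 9.89. It was Floxed 1 for Snrpn, at 6.31 against 7.03 to 7.43. As the mean deviation of a family, Floxed 1 was high for Sf3, at 0.12 against -0.009 to 0.017, and LKO 5 was high for Snrp, at 0.15 against -0.08 to -0.004.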

How the results depend on the processing

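The count of called splicing genes, 1, became 3 with normexp background correction (Hnrnpll, Prpf38b and Srsf9), 3 with every kept probe (Hnrnpc, Prpf38b and Sf3b4), 2 with the slide as a random block (Hnrnph2 and Prpf38b) and 0 with the slide as a fixed block, at an adjusted p below 0.05 or at an absolute log2 difference of at least 1. With 1 array left out it was 1 to 2, the second gene being Hnrnpc without Floxed 2, Hnrnph2 without LKO 1 and Snrpf without LKO 5. With the mean over probes it was 1, but the gene was Hnrnpc in place of Prpf38b. Prpf38b was called without any one array (-0.57 to -0.36). The count of other splicing genes, 7, became 13 with the methods' t-test, 11 with the slide as a random block, 0 with it as a fixed block and 5 to 11 with 1 array left out (11 without Floxed 2). Over the array 879 genes were called higher and 542 lower with normexp, and 8.54% of all kept probes were called. For the t-test, block and leave-out settings no array-wide count is given, so their counts cannot be set against a share. For Phgdh, -0.48, the value was -0.34 with 75th percentile scaling and -0.055 both with the slide as a fixed block and on slide 2 alone (neither of the first 2 was called), and -0.60 to -0.38 with 1 array left out. The 75th percentile scaling moved the median of all genes by under 0.02 and turned the 832 higher and 581 lower calls over the array into 1127 and 316, while 47 of 65 splicing genes were lower, against 48. The replicate block gave 1 splicing gene, 7 other splicing genes and Phgdh at -0.48, and changed none of these calls. The numbers were not taken as pairs. Same-numbered mice carry neighbouring animal numbers and controls were littermates, but the labels name no litters, 3 of 6 same-numbered pairs correlated over 0.1 (-0.24 to 0.32 over all), and only Floxed 4 and 6 correlated best with the LKO mouse of their own number. Slide 2 alone was taken as a difference, and the fixed block is its test. The random block still uses differences between slides, so a call in it does not set genotype apart from slide. The cause of these shifts was not tested. Intervals rest on 6 mice a group.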
